A study of Ovis aries with 4 samples.

Results

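Cells that carried transcripts of EDNRA and IGFBP7, little TPM1 and at least 1 transcript of FABP4 were examined in mammary gland tissue of lactating sheep. They were chosen from 4 droplet single-cell RNA sequencing libraries, in which each transcript is counted once by its unique molecular identifier (UMI). Of 39246 barcodes, 38886 had at most 20% of their UMIs in the 13 mitochondrial genes. Among these, 3982 passed a gate of at least 1 UMI of EDNRA, at least 1 of IGFBP7, 0 of CD3E, EPCAM, KDR, SELP, RELN and C1QA, and fewer than 5 of DCN. The members were the 585 gated cells with TPM1 below 10 per 10000 UMIs and at least 1 FABP4 UMI, which is 14.7% of the gated cells and 1.5% of the cells past the mitochondrial limit. The remaining gated cells fell into 2033 TPM1-high cells (TPM1 of 10 per 10000 or more) and 1364 TPM1-low cells without a FABP4 UMI.

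Each library came from the mammary gland of a different ewe, so n = 2 per stage. LL stands for late lactation in the series. LH is not spelled out and was read as peak lactation, because that is the only other stage the series describes and it has 2 ewes as well. Breed, age and parity are not used here, and all 4 ewes were lactating. Values per library are given throughout in the order LH replicate 1, LH replicate 2, LL replicate 1, LL replicate 2. Library totals were 28015149, 56178927, 60303230 and 65339993 UMIs, and any pair of libraries shared 15 to 39 barcode sequences, none of them between members. Members numbered 12, 60, 273 and 240 and held 40503, 161565, 1045061 and 657554 UMIs, so that 87.7% of the members came from LL. A single UMI in the members of LH replicate 1 is worth 24.7 CPM (counts per 1000000 UMIs of the summed cells), and 3 UMIs are worth 74.1, 18.6, 2.87 and 4.56 CPM. Levels in the members of LH replicate 1 are therefore coarse, and a level of 0 there allows up to 74.1 CPM.

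As background, FABP4 encodes a small cytosolic carrier of fatty acids that is abundant in adipocytes and is also made by capillary endothelium and some macrophages. EDNRA is the type A receptor of endothelin, through which vascular smooth muscle and pericytes contract, and IGFBP7 is a secreted binding protein of insulin-like growth factors found around blood vessels. TPM1 encodes a tropomyosin that lies along actin filaments and is plentiful in contractile cells. Of the other genes used to mark these cells, TIMP3 encodes an inhibitor of metalloproteinases held in the matrix, PLAU the urokinase plasminogen activator, and AGTR1 the type 1 receptor of angiotensin II.

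No cell type name was given to the members. Only 774 of 20150 genes had a symbol, and of 19 listed markers of pericytes and vascular smooth muscle only EDNRA and CNN1 did, so that they could not be told apart from other mural or stromal cells by these lists. The summed level of that pair was 494, 526, 422 and 608 CPM in members against 764, 782, 717 and 834 CPM in TPM1-high cells. In TPM1-low cells without FABP4 the sum was 526, 660, 552 and 680 CPM. Most of each sum is EDNRA, which the gate requires in every cell. Markers of blood endothelium (5 of 26 with a symbol) summed to 0, 12.4, 9.57 and 6.08 CPM, with KDR, SELP and SELE at 0 in every member library. Apart from KDR and SELP, which the gate holds at 0, the endothelial transcripts that could be named were at or near 0. The same markers summed to 3.59, 5.51, 10.4 and 6.27 CPM in TPM1-high cells. Of 15 adipocyte markers 6 had a symbol. ADIPOQ, the adipocyte hormone, and PLIN1, the coat protein of large lipid droplets, had 0 UMIs in members, and LIPE had 1. FABP4 made up most of the summed adipocyte level of 815, 1108, 1459 and 1287 CPM. Myeloid markers (6 of 19 with a symbol) summed to 0, 6.19, 6.70 and 3.04 CPM, with C1QA, LYZ and IL1B at 0. Markers of T and NK cells (9 of 19) summed to 98.8, 18.6, 41.1 and 94.3 CPM, with CD3E and CTLA4 at 0. Luminal epithelial markers (10 of 19) summed to 0, 192, 110.0 and 229.6 CPM, with EPCAM and LALBA at 0. Of these myeloid, lymphoid and luminal sums, the luminal one was the highest in 3 libraries. CD3E, EPCAM, KDR, SELP and C1QA are at 0 because the gate requires it. Fibroblast markers (7 of 19, among them GSN) summed to 963, 1628, 2232 and 1583 CPM, and DCN, limited by the gate, was at 24.7, 6.19, 88 and 38 CPM.

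Members were a larger part of the gated cells in late lactation. They made up 5.33% of the gated cells in LH replicate 1 (95% exact Clopper-Pearson interval 2.79 to 9.13%), 4.09% in LH replicate 2 (3.14 to 5.24%), 23.0% in LL replicate 1 (20.6 to 25.5%) and 21.7% in LL replicate 2 (19.3 to 24.3%). Each LL library was above each LH library. The intervals cover the counting error of cells within a library only, not the spread between ewes. The mean was 4.71% ± 0.877 (SD, n = 2) in LH and 22.4% ± 0.919 (SD, n = 2) in LL, a difference of 17.7 percentage points. The exact two-sided permutation p was 0.333, the smallest that 2 libraries against 2 allow, and since FABP4 and TPM1 chose the members this difference is a description. As a share of all cells past the mitochondrial limit, members were 0.205, 0.641, 2.16 and 2.18%.

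The TPM1-low cells without FABP4 kept a similar place in each library, at 32.4, 32.4, 35.0 and 36.3% of the gated cells. TPM1-high cells made up 62.2, 63.5, 42.0 and 42.0%. The gated cells together were 3.84, 15.7, 9.38 and 10.0% of all cells, so the LH libraries differed from each other by more than the LL libraries did. These are shares of dissociated cells.

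**Figure D1:**
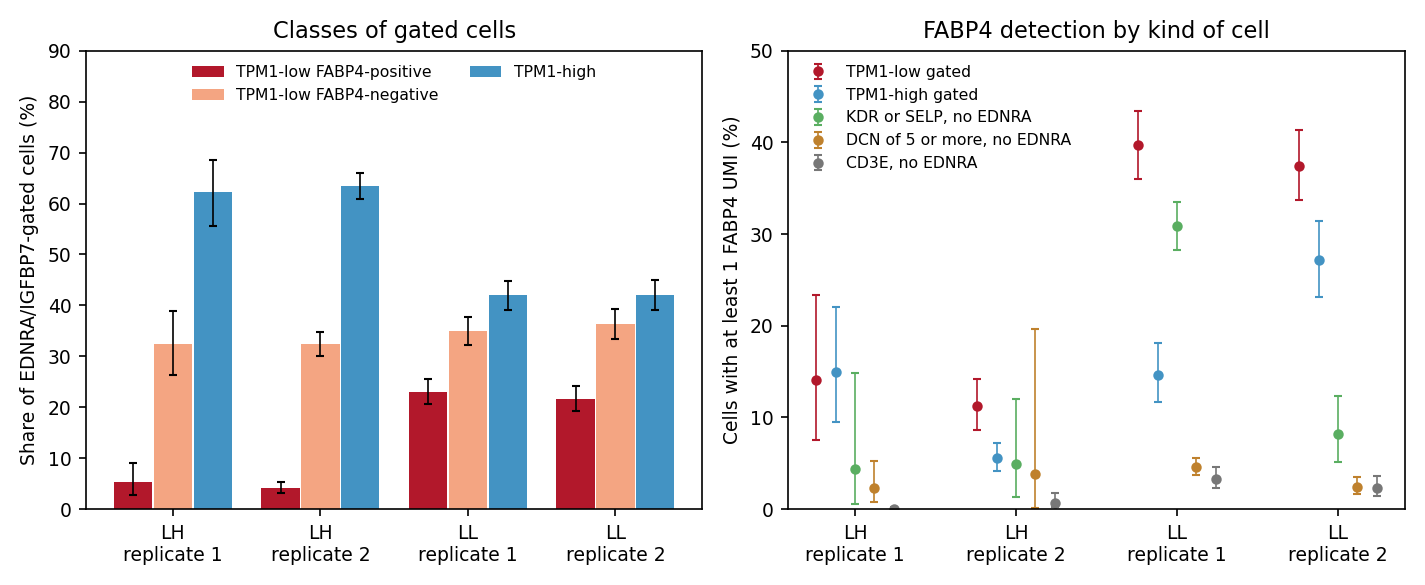
Left, percent of gated cells in each of the 3 classes by library, with 95% Clopper-Pearson intervals; right, percent of cells with at least 1 FABP4 UMI in TPM1-low gated, TPM1-high gated, KDR or SELP positive, DCN-rich and CD3E-positive cells by library. Members are 4.09 to 5.33% of gated cells in LH and 21.7 to 23.0% in LL, and the CD3E-positive cells stay at or below 3.32%.

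Free RNA in droplets can place a FABP4 UMI in a cell that does not make it, so FABP4 was also counted in cells that should lack it. Among TPM1-low gated cells, 14.1, 11.2, 39.7 and 37.4% had a FABP4 UMI. Among CD3E-positive cells, a mark of T cells, the share was 0.0424, 0.678, 3.32 and 2.30%, at median depths of 3396, 2779, 2768 and 2450 UMIs. These CD3E-positive cells were without a UMI of EDNRA, EPCAM, KDR or SELP. Their FABP4-positive share was also higher in LL, and in each library it lay below the share in TPM1-low gated cells. The part of free RNA in the FABP4 UMIs of gated cells was not tested. Members had medians of 2761, 2556.5, 3645 and 2431.5 UMIs, and TPM1-low cells without FABP4 had 3412, 2324, 2886 and 2186. With every cell thinned to 2000 UMIs, shallower cells left out and the rule applied again, which left 6, 25, 116 and 92 members, the FABP4-positive share of TPM1-low gated cells was 12.2, 9.69, 30.9 and 33.8%, and members were 4.23, 2.74, 15.3 and 15.4% of the gated cells. Among TPM1-high gated cells, 15, 5.59, 14.7 and 27.2% had a FABP4 UMI. In cells with KDR or SELP, marks of endothelium, the share was 4.35, 4.88, 30.8 and 8.24%, and in cells with 5 or more DCN UMIs 2.29, 3.85, 4.58 and 2.45%. In the LH libraries the FABP4-positive share of TPM1-low cells stood close to that of TPM1-high cells in LH replicate 1 and above it in LH replicate 2.

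FABP4 content varied widely among the members. A single FABP4 UMI was found in 249 members (42.6%), 2 to 4 in 217 and 5 or more in 119, with a median of 2. The highest value in a cell was 6, 8, 56 and 22. The summed level of FABP4 in members was 617, 755, 1159.7 and 979 CPM, against 55.6, 26.5, 88.1 and 165 CPM in TPM1-high cells and 0, by the rule, in TPM1-low cells without FABP4. TPM1 was at 272, 285, 326 and 315 CPM in members and 394, 395, 407 and 324 CPM in the TPM1-low cells without FABP4, and reached 2598, 3238, 2479 and 2315 CPM in TPM1-high cells. The rule limits TPM1 in all 3 classes and sets FABP4 in both TPM1-low classes, so no test applies. FABP4 in TPM1-high cells is not limited by the rule. No TPM1 UMI was seen in 257 members, and the median was 2.26 per 10000 UMIs. At the edge of the rule, 47 FABP4-positive gated cells had TPM1 from 8 to below 10 per 10000 and 41 from 10 to below 12, and 272 FABP4-positive gated cells lay at 10 or more. TPM1 therefore had no gap at the threshold that sets the members apart.

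The other marker genes, also given as description, differed in how they set the members apart. TIMP3 was at 1926, 3441, 3553 and 3753 CPM in members, 978, 2261, 2474 and 2697 CPM in TPM1-low cells without FABP4 and 1037, 1585, 1610.0 and 2089.6 CPM in TPM1-high cells, so members were highest within every library. PLAU was at 0, 192, 170.3 and 166 CPM in members, 47, 131, 102 and 139 CPM in TPM1-low cells without FABP4 and 19.7, 51, 78.8 and 74.5 CPM in TPM1-high cells. The members of LH replicate 1 held no PLAU UMI, and in the other libraries members were the highest class. AGTR1 was at 0, 37.1, 52.6 and 27.4 CPM in members and 2.94, 40.5, 25.1 and 24.2 CPM in TPM1-low cells without FABP4, and stayed at 0, 2.41, 4.06 and 2.35 CPM in TPM1-high cells. AGTR1 was thus low in TPM1-high cells of every library, and in LH replicate 1 it was at or near 0 in all 3 classes. IGFBP7 was at 1580.1, 3008, 2427 and 1534 CPM in members and 1098, 2123, 1383 and 1186 CPM in TPM1-high cells, higher in members within each library. EDNRA, which the gate requires in every cell, was at 469, 519.9, 402 and 586 CPM in members and 629.7, 677, 569 and 717 CPM in TPM1-high cells, lower in members within each library.

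**Figure D2:**
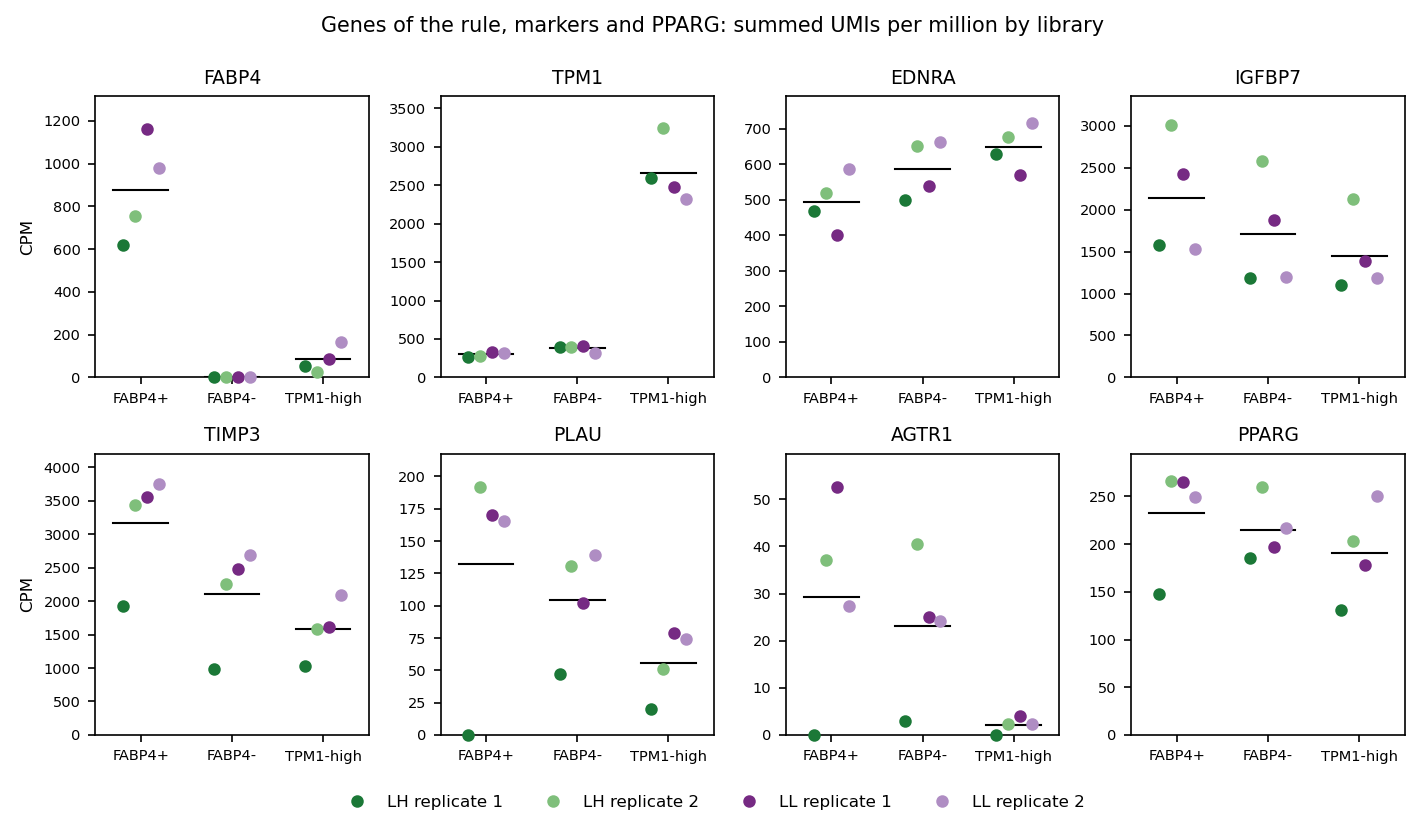
Levels (CPM, counts per 1000000 summed UMIs) of FABP4, TPM1, EDNRA, IGFBP7, TIMP3, PLAU, AGTR1 and PPARG in members, TPM1-low FABP4-negative cells and TPM1-high cells; each point is a library and each bar the mean of 4 libraries. The rule separates TPM1 between TPM1-low and TPM1-high cells, and FABP4 between the TPM1-low classes. TIMP3 is highest in members within every library, and PPARG overlaps between the classes.

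Within the members, PLAU and TIMP3 were followed across FABP4 content in the LL libraries, where there were enough cells. In LL replicate 1, PLAU was at 76.9 CPM in cells with 1 FABP4 UMI, 148.9 CPM with 2 to 4 and 308.2 CPM with 5 or more. TIMP3 in the same cells was at 2880, 3432 and 4505 CPM, and NFKBIA, which encodes an inhibitor of NF-κB, at 786, 1242 and 1721 CPM. All 3 were ordered by FABP4 content in that library. In LL replicate 2 the order was not the same: PLAU was at 139.5, 187.6 and 180.1 CPM, TIMP3 at 3363, 4061 and 4003 CPM and NFKBIA at 1442, 1255 and 1842 CPM. FABP5, a close relative of FABP4, was nearly flat over FABP4 content in LL replicate 2, at 934, 899 and 1007 CPM, and was at 813, 901 and 1003 CPM in LL replicate 1. PLAU was detected in 191 members and AGTR1 in 67, and 32 members had both. PLAU was found in 47.8% of the members with AGTR1 and in 30.7% of those without, a description in which the depth of the cells is shared.

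Against all other gated cells, members had more transcripts of FABP5, ICAM1, FGF12, GSN and NFKBIA and fewer of CNN1, ACTB and CRYAB. By edgeR's quasi-likelihood test on UMIs summed per library, with the ewe as a block, 716 of 7597 genes differed (9.42%), 347 higher (4.57%) and 369 lower (4.86%). Of the 334 genes with a symbol, 26 were higher (7.78%) and 12 lower (3.59%). Among these, 14 higher and 10 lower genes had at least 20 CPM and kept their direction in every library.

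FABP5, a fatty acid-binding protein first known from epidermis, was higher in members of every library. Its level was 1234, 1411, 900.4 and 934 CPM in members and 455, 731, 515 and 649 CPM in the other gated cells. All 4 member values lay above all 4 others (log2 fold change 0.84 ± 0.12, adjusted p = 2.49e-06). FABP4 and FABP5 are related in sequence, and how reads that match both genes were counted is not given in the sources used here. Of 10 tested genes of fatty acid uptake, storage and lipolysis, FABP5 alone passed the test, close to the share over all genes (9.42%), and the median log2 fold change of the list was -0.13 against -0.01 over all genes. PPARG, the nuclear receptor that drives FABP4 in adipocytes, was at 148, 266, 265 and 249 CPM in members and 151, 220.0, 187 and 236 CPM in the others, with overlapping ranges and no passed test (0.27 ± 0.14, adjusted p = 0.31). LPL, the lipoprotein lipase, was at 49.4, 86.7, 34.4 and 56.3 CPM and 42.3, 90.1, 65.8 and 61.8 CPM and did not pass either (-0.43 ± 0.22, adjusted p = 0.295).

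Of 9 tested genes of the inflammatory and NF-κB response, ICAM1, NFKBIA and PTGS2 rose and IL18 fell, against 4.57% of all tested genes higher and 4.86% lower, with a list median of 0.74. ICAM1, an adhesion molecule that binds leukocyte integrins, was at 74.1, 68.1, 104 and 117 CPM in members and 34.5, 21.8, 38.2 and 55.2 CPM in the other gated cells. The ranges did not overlap (1.31 ± 0.20, adjusted p = 4.55e-06). NFKBIA was at 272, 774, 1223 and 1443 CPM in members and 364, 338, 526 and 764 CPM in the others, higher in members of 3 libraries and lower in LH replicate 1 (0.93 ± 0.15, adjusted p = 1.37e-05). PTGS2, the inducible cyclooxygenase, was at 0, 55.7, 111 and 33.5 CPM in members, mostly from LL replicate 1, and 40.1, 14, 34.6 and 44.1 CPM in the others (0.94 ± 0.29, adjusted p = 0.0311). Members were lower than the others in LH replicate 1 and LL replicate 2. The PTGS2 call was lost without LH replicate 1 (adjusted p = 0.0579) or LL replicate 1, where the log2 fold change was 0.14 (adjusted p = 0.993), and with TPM1 below 5 per 10000, where it was 0.27 (adjusted p = 0.688). IL18, an inflammasome cytokine, was at 0, 37.1, 21.1 and 18.2 CPM in members and 105, 119, 38.2 and 31.8 CPM in the others (-1.13 ± 0.27, adjusted p = 0.00368). IL18 was lower in members within every library, though the LH and LL values of the other cells were far apart. Against TPM1-low cells without FABP4, ICAM1 alone of 11 tested genes of this list passed, with a list median of -0.05. Over all genes tested in that comparison, 0.538% were higher.

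Of 8 tested genes of the interferon response and antigen presentation, IRF1, B2M and ISG15 rose and none fell, against 4.57% of all tested genes higher, with a list median of 0.54. IRF1, a transcription factor of the interferon response, was at 148, 204, 204 and 315 CPM in members and 72.4, 109, 110.3 and 237 CPM in the others. Members were higher within each library, but the ranges overlapped because both classes were highest in LL replicate 2 (0.71 ± 0.15, adjusted p = 7.20e-04). B2M, the light chain of MHC class I, was at 148, 279, 208 and 187 CPM and 166, 138, 103 and 126 CPM (0.78 ± 0.15, adjusted p = 3.95e-04). ISG15, a ubiquitin-like protein, was at 74.1, 68.1, 44 and 114 CPM and 17.8, 40.1, 45.1 and 46.3 CPM (0.73 ± 0.23, adjusted p = 0.0397). B2M was lower in members of LH replicate 1 and ISG15 in members of LL replicate 1. Without LL replicate 1, IRF1 (adjusted p = 0.1) and B2M (adjusted p = 0.0999) no longer passed, and ISG15 no longer passed without LH replicate 1 (adjusted p = 0.112) or LL replicate 2 (adjusted p = 0.832).

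The contractile and actin-associated list moved in both directions. Of 7 tested, GSN rose and CNN1 and ACTB fell, against 4.57% and 4.86% of all tested genes, with a median of -0.15. CNN1, the calponin of smooth muscle, was at 24.7, 6.19, 20.1 and 22.8 CPM in members, 38 UMIs in all, and 93.6, 77.6, 89.5 and 74.6 CPM in the others. The ranges were far apart (-2.07 ± 0.25, adjusted p = 1.30e-07). ACTB, the cytoskeletal β-actin, was at 198, 192, 367 and 546 CPM and 587, 589, 655 and 795 CPM, again without overlap (-0.95 ± 0.15, adjusted p = 1.20e-05). GSN, which severs and caps actin filaments and is also abundant in fibroblasts, was at 938, 1535, 2082 and 1466 CPM in members and 668, 815, 1072 and 874 CPM in the others (0.79 ± 0.11, adjusted p = 2.87e-06). It was higher in members within every library, and it supplied most of the fibroblast marker sum given above. CAV1, ITGB1, RHOA and CFL1 did not pass. CRYAB, a small heat shock protein of muscle, was at 272, 328, 339 and 299.6 CPM in members and 439, 545, 636 and 467 CPM in the others, without overlap (-0.77 ± 0.13, adjusted p = 4.67e-05). HACD1, an enzyme of very long chain fatty acid synthesis in muscle, was lower in members within each library (-0.98 ± 0.26, adjusted p = 0.00953) and lost its call without LL replicate 1 (adjusted p = 0.274).

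Signalling and ion transport genes gave the next group. FGF12, an intracellular FGF homologue that binds sodium channels, was at 98.8, 173, 116 and 108 CPM in members and 23.4, 55.3, 49.7 and 62.7 CPM in the others. The ranges did not overlap (1.20 ± 0.19, adjusted p = 9.65e-06). AVPR1A, the vasopressin receptor of vascular smooth muscle and the only tested member of the vasoactive receptor list besides the marker AGTR1, was at 0, 142, 41.1 and 60.8 CPM and 13.4, 42.6, 29 and 32.2 CPM (0.96 ± 0.25, adjusted p = 0.00688). Members were higher in 3 libraries and had no UMI in LH replicate 1, and the call was lost without LH replicate 2 (adjusted p = 0.135). SLC12A2, the sodium, potassium and chloride cotransporter, rose (0.57 ± 0.17, adjusted p = 0.0298), a call lost without LH replicate 1 (adjusted p = 0.0619) or LH replicate 2 (adjusted p = 0.564). SRI, a calcium-binding protein of the ryanodine receptor, was at 247, 389.9, 273 and 237 CPM and 105, 170.3, 178 and 204 CPM, without overlap (0.66 ± 0.15, adjusted p = 0.002).

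Secreted factors also differed. IGFBP6, which binds insulin-like growth factor II, was at 1037, 1399, 1086 and 843 CPM in members and 819, 678, 740.2 and 572 CPM in the others (0.62 ± 0.12, adjusted p = 3.96e-04), and members were higher within each library. TIMP1, a metalloproteinase inhibitor, was at 395, 891, 751 and 581 CPM and 329.7, 440.1, 613 and 375 CPM (0.57 ± 0.13, adjusted p = 0.00301), a call lost without LH replicate 2 (adjusted p = 0.0512). FST, the activin-binding protein follistatin, was at 0, 43.3, 108 and 15.2 CPM in members and 4.45, 1.96, 21.4 and 5.30 CPM in the others (2.38 ± 0.34, adjusted p = 2.07e-06). LL replicate 1 supplied 113 of the FST UMIs in members. FST kept its call without each of the other 3 libraries, although the members of LH replicate 1 held no FST UMI. Without LL replicate 1 it fell below the filter on low counts and was not tested. BHLHE40, a repressor in the circadian clock, was at 98.8, 80.5, 316 and 242 CPM in members and 289.6, 315, 395 and 351 CPM in the others, lower within each library, with only the LL replicate 1 value of members reaching the range of the others (-0.71 ± 0.17, adjusted p = 0.00325). DBP, a clock-driven transcription factor, rose (0.60 ± 0.18, adjusted p = 0.0234), a call lost without LL replicate 1 (adjusted p = 0.204) or LL replicate 2 (adjusted p = 0.347).

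The immediate early genes, which respond to tissue dissociation as well as to stimuli, were also followed. Of 8 tested, FOS and BTG2 fell and none rose, against 4.86% of all tested genes lower, with a list median of -0.24. FOS was at 4197, 7248, 7669 and 7843 CPM in members and 6029.5, 8161, 8723 and 8303 CPM in the others (-0.27 ± 0.09, adjusted p = 0.0412), a call lost without LH replicate 1 (adjusted p = 0.372) or LL replicate 1 (adjusted p = 0.117). BTG2, an antiproliferative gene of that response, was at 370.3, 223, 897 and 947 CPM and 423, 625, 1381 and 1038 CPM (-0.59 ± 0.15, adjusted p = 0.00523), a call lost without LH replicate 2 (adjusted p = 0.0737). FCGR3A, an Fc receptor of NK cells and macrophages, rose (1.26 ± 0.35, adjusted p = 0.0136) at 24.7, 43.3, 24.9 and 13.7 CPM in members, 43 UMIs in all, against 10.0, 14.7, 10.2 and 7.06 CPM. Its call was lost without LH replicate 2 (adjusted p = 0.0653), LL replicate 1 (adjusted p = 0.302) or LL replicate 2 (adjusted p = 0.0699). The myeloid and lymphoid marker sums are given above, and their part in this result was not tested.

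**Figure D3:**
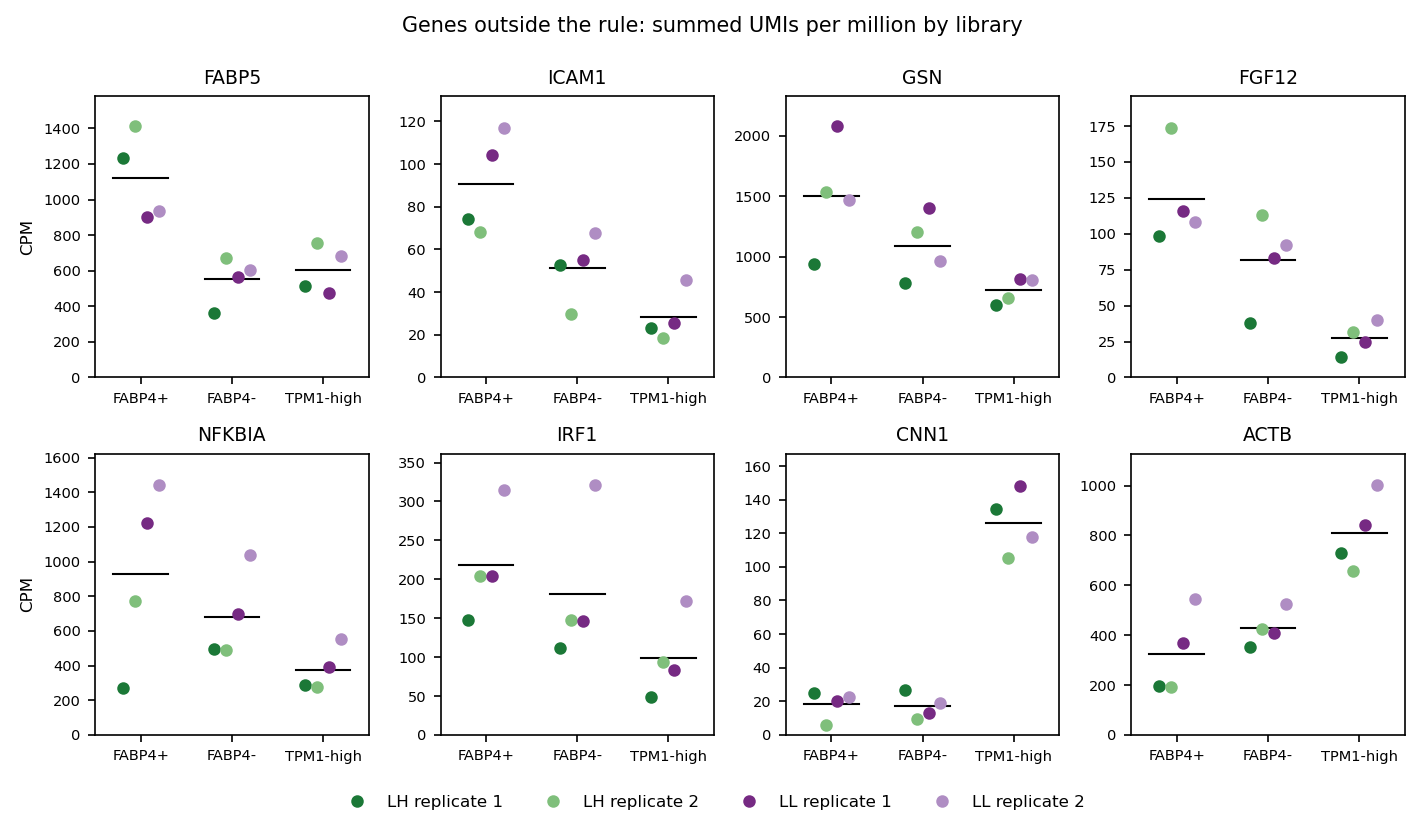
Levels (CPM) of FABP5, ICAM1, GSN, FGF12, NFKBIA, IRF1, CNN1 and ACTB in members, TPM1-low FABP4-negative cells and TPM1-high cells; each point is a library and each bar the mean of 4 libraries. FABP5 sets members apart from both other classes, FGF12 and IRF1 are high in both TPM1-low classes, and CNN1 and ACTB are highest in TPM1-high cells.

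The other gated cells mix both remaining classes, and TPM1-high cells made up a larger part of them in LH than in LL, so each class was also compared with members directly. Against TPM1-high cells, 1281 of 8185 genes differed (15.7%), 629 higher (7.68%) and 652 lower (7.97%). Of 353 genes with a symbol, 35 were higher (9.92%) and 26 lower (7.37%). Against TPM1-low cells without FABP4, 131 of 8185 differed (1.6%), 44 higher (0.538%) and 87 lower (1.06%), with 5 higher (1.42%) and 1 lower (0.283%) of the genes with a symbol.

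Several of the genes above passed against TPM1-high cells and not against TPM1-low cells without FABP4. The fits share the members, and whether the 2 differences differ from each other was not tested. FGF12 was at 38.2, 113, 83 and 91.9 CPM in TPM1-low cells without FABP4 and 14.4, 31.7, 24.4 and 40.0 CPM in TPM1-high cells. The difference was 2.00 ± 0.19 against TPM1-high cells (adjusted p = 4.82e-08) and 0.47 ± 0.17 against the TPM1-low cells (adjusted p = 0.253). FGF12 was higher in both TPM1-low classes than in TPM1-high cells within every library. IGFBP6 was 1.09 ± 0.16 against TPM1-high cells (adjusted p = 1.90e-05) and 0.07 ± 0.16 against TPM1-low cells (adjusted p = 0.952). TIMP1 was likewise 0.99 ± 0.13 (adjusted p = 5.37e-06) and 0.07 ± 0.13 (adjusted p = 0.93), and SLC12A2 1.34 ± 0.18 (adjusted p = 7.14e-06) and -0.15 ± 0.17 (adjusted p = 0.85). For IGFBP6 and SLC12A2, all values of both TPM1-low classes lay above all values of TPM1-high cells. CNN1 was at 26.4, 9.29, 12.9 and 19.2 CPM in TPM1-low cells without FABP4, overlapping the members, and 135, 105, 148 and 118 CPM in TPM1-high cells (-2.77 ± 0.24, adjusted p = 1.37e-08). ACTB was at 730.1, 656, 842 and 1004 CPM in TPM1-high cells (-1.27 ± 0.15, adjusted p = 1.36e-06) and 352, 424, 410.4 and 526 CPM in the TPM1-low cells (-0.29 ± 0.16, adjusted p = 0.569).

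Of 8 tested genes of antigen presentation and the interferon response, 6 rose against TPM1-high cells and none fell, beside 7.68% of all tested genes higher, with a list median of 0.98 against -0.01 over all genes. PSMB8, a subunit of the immunoproteasome, was at 74.1, 155, 102 and 85.2 CPM in members and 44.8, 45.8, 48.1 and 40.0 CPM in TPM1-high cells (1.22 ± 0.19, adjusted p = 5.49e-05). B2M was at 104, 110.0, 77.1 and 98.8 CPM in TPM1-high cells (1.17 ± 0.16, adjusted p = 6.73e-06). Members were higher within every library for both genes. IRF1 (1.06 ± 0.14, adjusted p = 4.67e-06), ISG15 (1.29 ± 0.26, adjusted p = 8.24e-04), IFNAR2, a chain of the type I interferon receptor (0.90 ± 0.28, adjusted p = 0.0275), and MX1, an antiviral GTPase (0.84 ± 0.27, adjusted p = 0.0383), made up the rest. ISG15 lost its call without LL replicate 2 (adjusted p = 0.125), and IFNAR2 lost it without LH replicate 2 (adjusted p = 0.078), LL replicate 1 (adjusted p = 0.208) or LL replicate 2 (adjusted p = 0.211). MX1 lost it without LH replicate 2 (adjusted p = 0.267) or LL replicate 2 (adjusted p = 0.233). Neither IFNAR2 nor MX1 kept its call after thinning or by DESeq2. Against TPM1-low cells without FABP4, none of the 8 passed, and the list median was 0.12.

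Of 6 tested nuclear genes of the respiratory chain and ATP synthase, ATP5PO, NDUFA12, ATP5MC1 and ATP5PD were lower in members than in TPM1-high cells, beside 7.97% of all tested genes lower, with a list median of -0.42. NDUFB8 (-0.39, adjusted p = 0.0564) and ATP5MC2 (0.0072, adjusted p = 0.993) did not pass. ATP5MC1, a subunit of the ATP synthase ring, was at 74.1, 124, 158 and 178 CPM in members and 152, 183, 249.9 and 253 CPM in TPM1-high cells (-0.64 ± 0.13, adjusted p = 0.001), and lost its call without LL replicate 1 (adjusted p = 0.0547). NDUFA12 lost its call without LH replicate 2 (adjusted p = 0.0848) or LL replicate 1 (adjusted p = 0.0583), and ATP5PO without LL replicate 1 (adjusted p = 0.0951) or LL replicate 2 (adjusted p = 0.0866). ATP5PD lost it without LH replicate 2 (adjusted p = 0.173), LL replicate 1 (adjusted p = 0.252) or LL replicate 2 (adjusted p = 0.172). SLC25A4, the ADP and ATP carrier of muscle mitochondria, was lower too (-0.82 ± 0.12, adjusted p = 2.31e-05). The median percent of mitochondrial UMIs was 5.18, 2.08, 3.70 and 4.12 in members and 5.96, 2.30, 4.34 and 4.26 in the other gated cells, slightly lower in members within each library. The immediate early list showed 4 of 8 genes lower than in TPM1-high cells (FOS, MYC, BTG2 and ZFP36), again beside 7.97% of all tested genes, with a median of -0.44. Without LL replicate 1 the calls of MYC (adjusted p = 0.182) and ZFP36 (adjusted p = 0.0841) were lost, and that of MYC also without LH replicate 2 (adjusted p = 0.271). SPARC, a matrix glycoprotein, rose (1.02 ± 0.16, adjusted p = 3.52e-05). REM1, a small GTPase that inhibits calcium channels (1.14 ± 0.18, adjusted p = 4.14e-05), and B4GALT1, the galactosyltransferase that also serves lactose synthesis (1.10 ± 0.17, adjusted p = 4.03e-05), were higher in members too. FGF7, a stromal growth factor for epithelium, was at 0, 74.3, 45.9 and 74.5 CPM in members and 126, 151, 96.2 and 91 CPM in TPM1-high cells (-0.87 ± 0.23, adjusted p = 0.0113), and lost its call without LH replicate 2 (adjusted p = 0.0641) or LL replicate 1 (adjusted p = 0.215). Against TPM1-low cells without FABP4, none of the 6 respiratory chain and ATP synthase genes passed, with a list median of 0.05. None of the 8 immediate early genes was lower there, CCN2 was higher, and the list median was 0.05. SPARC, FGF7 and B4GALT1 (0.17, adjusted p = 0.822) did not pass there.

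**Figure D4:**
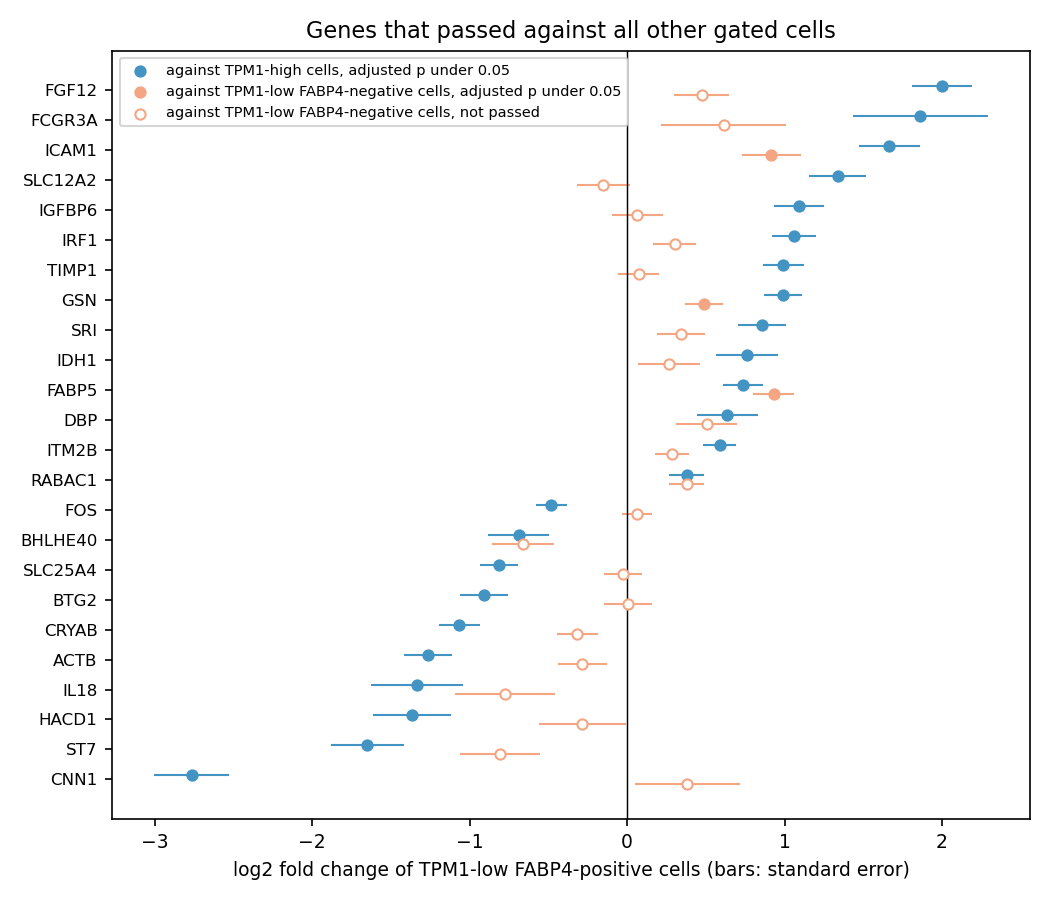
Log2 fold change ± standard error of the 24 named genes of the comparison with all other gated cells, shown for members against TPM1-high cells and against TPM1-low FABP4-negative cells; filled points passed an adjusted p of 0.05. FABP5, ICAM1 and GSN are filled in both comparisons, and CNN1 lies at -2.77 against TPM1-high cells and at 0.38, not passed, against the TPM1-low cells.

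Few named genes differed between members and the TPM1-low cells without FABP4. Of these, FABP5 had the lowest adjusted p, while FST, CCN2 and MMP7 had larger fold changes. FABP5 was at 364, 674, 567 and 604 CPM in these cells, below every member value (0.93 ± 0.13, adjusted p = 3.01e-04). A FABP5 UMI was found in 91.7, 93.3, 86.1 and 77.5% of members and in 52.1, 62.3, 62.9 and 60.8% of TPM1-low cells without FABP4. In the 10, 44, 237 and 170 members deep enough to be thinned to 2000 UMIs, and in the thinned TPM1-low cells without FABP4, these shares were 80.0, 90.9, 70.9 and 72.9% against 42.4, 60.5, 56.0 and 60.4%, so members were higher within every library at equal depth. In TPM1-high cells, FABP5 was at 511, 754, 475 and 685 CPM, also below the members (0.74 ± 0.13, adjusted p = 1.50e-04).

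ICAM1 was at 52.9, 29.5, 54.8 and 67.6 CPM in TPM1-low cells without FABP4, and members were higher within each library (0.92 ± 0.19, adjusted p = 0.00922). GSN was at 778, 1202, 1404 and 966 CPM (0.49 ± 0.12, adjusted p = 0.0356), with overlapping ranges and members higher within each library. CCN2, the connective tissue growth factor and a target of mechanical signalling, was at 24.7, 18.6, 46.9 and 21.3 CPM in members and 5.87, 11.8, 22.1 and 11.1 CPM in these cells (1.15 ± 0.29, adjusted p = 0.0422). All 3 calls were lost without LL replicate 1 (adjusted p = 0.206, 0.29 and 0.639 for ICAM1, GSN and CCN2) and without LL replicate 2 (adjusted p = 0.0737, 0.316 and 0.154). GSN and CCN2 were also lost without LH replicate 2 (adjusted p = 0.0513 and 0.108). FST passed as well (1.45 ± 0.37, adjusted p = 0.046), and its call was lost without LH replicate 2 (adjusted p = 0.124) or LL replicate 2 (adjusted p = 0.0504) and was not tested without LL replicate 1, where it fell below the filter. DESeq2 did not call GSN, CCN2 or FST here, and CCN2 was also lost when doublet calls were left out (adjusted p = 0.248). NFKBIA was at 493, 491, 699.7 and 1037 CPM and missed the threshold (0.54 ± 0.15, adjusted p = 0.0889), but passed without LH replicate 1 (adjusted p = 2.50e-04).

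MMP7, an epithelial metalloproteinase, was the only gene with a symbol that was lower in members than in TPM1-low cells without FABP4. It was at 0, 0, 1.91 and 13.7 CPM in members, 11 UMIs in all, and 117, 25.3, 12.2 and 69.6 CPM in these cells (-2.64 ± 0.46, adjusted p = 0.00232). Members of both LH libraries held no UMI, so the fitted size depends on the prior count. The summed luminal epithelial markers in TPM1-low cells without FABP4 were 881, 402, 99.0 and 173.6 CPM, above the members in both LH libraries. These sums include SPP1, and their part in this difference was not tested. FABP5 and MMP7 kept their calls without each library in turn.

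Of the 716 genes called against the other gated cells, 678 had an identifier only. Among those with a mean of at least 20 CPM in members, ENSOARG00000017123 had the highest log2 fold change (3.01) and ENSOARG00000010137 followed (2.49). ENSOARG00000010137 was at 0 CPM in the members of LH replicate 1. Among those with a mean of at least 20 CPM in TPM1-high cells, ENSOARG00000001872 (-4.40) and ENSOARG00000005795 (-3.88) were the lowest.

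Within the members, LL was compared with LH over 2 ewes per stage. By edgeR 0 of 5793 genes passed an adjusted p of 0.05 (0%). At an unadjusted p of 0.05 there were 373 genes (6.44%), and DESeq2 gave 1 call. The genes of lowest p whose stages did not overlap are given as values. BTG2 was at 370.3, 223, 897 and 947 CPM in members, with both LL values above both LH values (1.84 ± 0.30, adjusted p = 0.275). ZFP36, which destabilises the messages of cytokines, was at 1457, 2160.1, 3520.4 and 3802 CPM (1.07 ± 0.26, adjusted p = 0.735). BHLHE40 was at 98.8, 80.5, 316 and 242 CPM (1.79 ± 0.36, adjusted p = 0.614). These 3 had higher values in LL, and so did ACTB (1.31 ± 0.33), IGFBP5, another binding protein of insulin-like growth factors (1.53 ± 0.38), and NFIL3, a clock-linked transcription factor (1.33 ± 0.36), with adjusted p of 0.735 each.

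Lower values in LL were seen for 4 genes. ASIP, the agouti signalling protein, was at 370.3, 631, 186 and 144 CPM in members (-1.61 ± 0.31, adjusted p = 0.614). SMAD4, the shared mediator of TGF-β and BMP signals, was at 173, 149, 55.5 and 65.4 CPM (-1.29 ± 0.36, adjusted p = 0.735). Each LL value of both genes was below each LH value. ABHD5, a co-activator of triglyceride lipase, was at 98.8, 43.3, 15.3 and 9.12 CPM (-2.06 ± 0.58, adjusted p = 0.735). SLC12A2 was at 198, 359, 107 and 157 CPM (-1.17 ± 0.34, adjusted p = 0.74). In the other gated cells, ASIP was at 229, 483, 158 and 138 CPM and BTG2 at 423, 625, 1381 and 1038 CPM, so that these genes had the same order of stages there. SMAD4 was at 43.4, 73.4, 64.5 and 70.2 CPM in the other gated cells, where the stages overlapped. LH replicate 1 has 12 members, and leaving out an LH library brought the count to 35 (without LH replicate 1) or 55 (without LH replicate 2). Those fits have 1 LH library, which is assumed to vary like the LL pair, so their calls are not read as differences between stages. Over the 8 tested immediate early genes the median LL minus LH difference was 0.78 against 0.03 over all genes, and none passed.

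**Figure D5:**
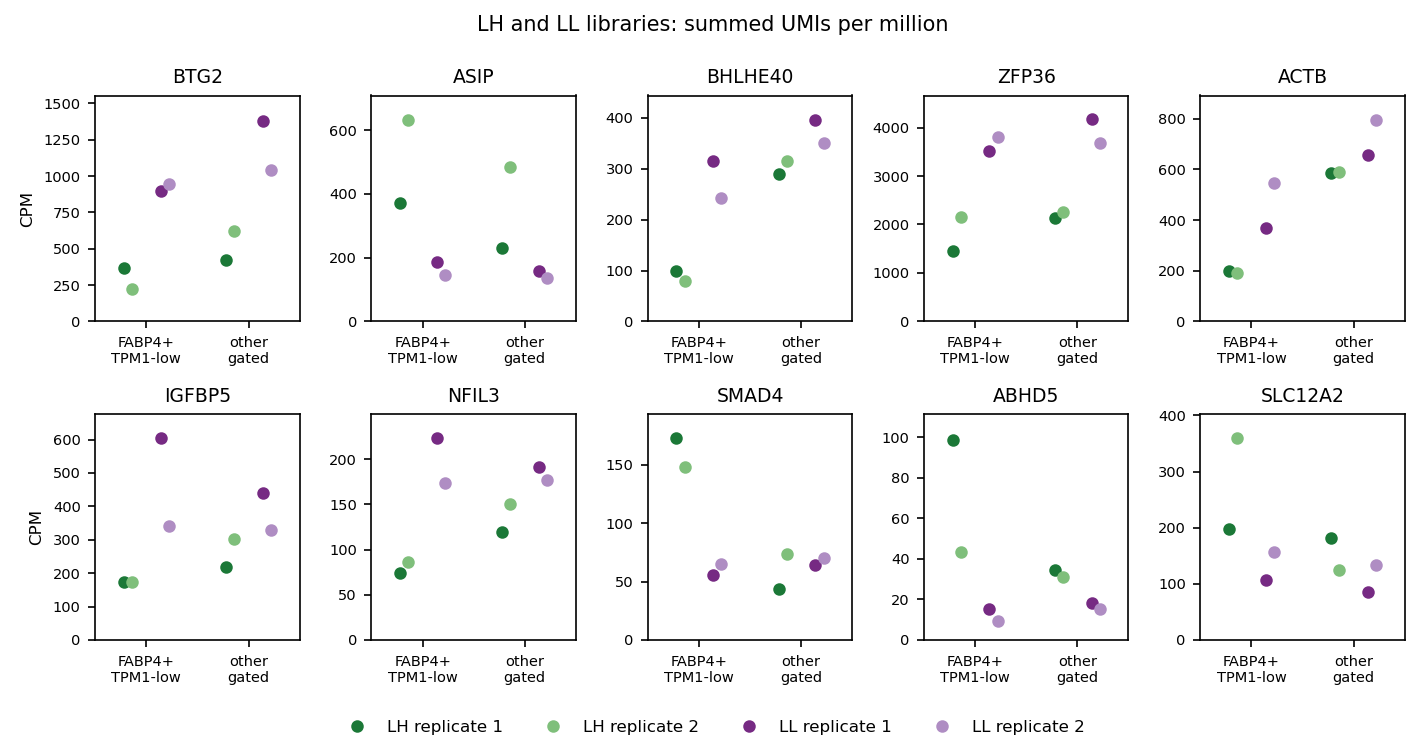
Levels (CPM) of 10 genes in members and in the other gated cells by library, LH against LL; each point is a library. In members the LH and LL points do not overlap for any of the 10, which is how they were chosen, and none passed an adjusted p of 0.05.

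Whether the LL minus LH difference of members departed from that of the other gated cells was tested as an interaction. It did so for 20 of 8437 genes (0.237%), 13 more positive (0.154%) and 7 more negative (0.083%), while 514 passed at an unadjusted p of 0.05 (6.09%) and DESeq2 made 0 calls. The median interaction over all genes was 0.12. SPP1 and BHLHE40 were the only genes with a symbol among the 20, 2 of the 359 tested (0.557%). BHLHE40 was at 98.8, 80.5, 316 and 242 CPM in members and 289.6, 315, 395 and 351 CPM in the other gated cells, a difference of differences of 1.56 ± 0.38 (adjusted p = 0.0205). Its low values were those of the members of both LH libraries. SPP1, the secreted phosphoprotein osteopontin that lactating epithelium makes in quantity, was at 0, 111, 32.5 and 19.8 CPM in members and 373, 169, 10.5 and 30.4 CPM in the others (2.00 ± 0.48, adjusted p = 0.0165). The SPP1 call was lost without LH replicate 1 (adjusted p = 0.643), LH replicate 2 (adjusted p = 0.12) or LL replicate 1 (adjusted p = 1), and BHLHE40 without LH replicate 2 (adjusted p = 0.496), LL replicate 1 (adjusted p = 1) or LL replicate 2 (adjusted p = 1). BHLHE40 stayed at 1.46 ± 0.55, 1.44 ± 0.59 and 1.67 ± 0.57 in these fits, which have 1 ewe in a stage. SPP1 was at 1.31 without LH replicate 1 and 0.96 without LL replicate 1, and its size without LH replicate 2 depends on the prior count, since the remaining LH members hold no UMI. The SPP1 call was also lost when doublet calls were left out (0.94, adjusted p = 0.922). Neither gene kept its call with TPM1 below 5 per 10000 or among cells of at least 2000 UMIs. Luminal marker sums were highest in the TPM1-low cells without FABP4 of LH replicate 1 (881 CPM). SPP1 is itself among these markers, so the sum is not a measure apart from it. The part of the other luminal markers in the SPP1 result was not tested.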

How the data were processed

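The deposited files hold raw UMI counts of each gene in each barcode, from 1 droplet library (10x) for each of 4 ewes. Per the file headers they were made with Cell Ranger 7.2.0, while the submitters' processing notes name Cell Ranger 5.0.1, Seurat 3.2.0 and STAR. Genome build and annotation are not given in the sources used here. Of 20150 genes, 774 had a symbol, and these held 12.6% of the UMIs of the members. Of the symbols 763 were found in a RefSeq gene table (assembly ARS-UI_Ramb_v3.0), which matched 0 of the bare identifiers, so no coordinates or sequences were used.

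The library titles gave the stage (LH or LL) and the replicate number. Counts were summed per library and class and tested with edgeR 4.0.16 (quasi-likelihood test, TMM, filterByExpr with a minimum count of 10) in R 4.3.3, with Benjamini-Hochberg adjusted p under 0.05 over all genes tested. Classes of a library come from the same ewe, so the ewe was a block in comparisons between classes. The LL against LH test had no block. The standard error (±) of an edgeR log2 fold change is its absolute value divided by the square root of the quasi-likelihood F statistic. CPM are UMIs per 1000000 of a class's unscaled total. Genes of the rule and the 6 markers were left out of the counts of calls. Genes were named by the largest change among those with a symbol, an adjusted p under 0.05, at least 20 CPM and the same direction in all libraries, up to 15 in each direction, and as members of gene lists. The members and the lists were chosen with earlier results of these data known. Each stage has only 2 ewes behind its p-values, and Clopper-Pearson intervals (95%) and floors of 3 counts cover counting error only.

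Alternatives were at least 2 FABP4 UMIs, TPM1 below 5 per 10000, at most 10% mitochondrial UMIs, cells of at least 2000 UMIs, thinning to 2000 UMIs, doublet calls left out, size factors of DESeq2, DESeq2 1.42.0, no filter on low counts, each library left out, and the block left out or added. Doublets were kept in the main results. They were scored by simulation in scanpy 1.11.5, and the highest 6% of scores in each library were called, a threshold chosen after seeing the data because the automatic one called 0 cells in LH replicate 1. This marked 1 of 12, 1 of 60, 17 of 273 and 16 of 240 members. Of the other gated cells it marked 4 of 213, 42 of 1406, 32 of 913 and 30 of 865. The marked share was higher in members than in the others, except in LH replicate 2. The fitting steps were tested on simulated counts with known changes.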

Additional observations from a re-analysis of the deposited data

Results flagged for a closer look

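For 2 genes the LL minus LH difference of the members departed from that of the other gated cells by the interaction test. BHLHE40, a clock repressor, differed by 1.56 on the log2 scale (adjusted p = 0.0205, edgeR), with 98.8, 80.5, 316 and 242 CPM in members and 289.6, 315, 395 and 351 CPM in the other gated cells. SPP1, osteopontin, differed by 2.00 (adjusted p = 0.0165), with 0, 111, 32.5 and 19.8 CPM in members and 373, 169, 10.5 and 30.4 CPM in the others. The members of LH replicate 1 held no SPP1 UMI, and their 3-count floor is 74.1 CPM. Neither gene kept its call with TPM1 below 5 per 10000, among cells of at least 2000 UMIs or by DESeq2. By edgeR the SPP1 call was also lost with at most 10% mitochondrial UMIs (adjusted p = 0.109) and without doublet calls (adjusted p = 0.922). SPP1 was at 0.17 on the log2 scale after thinning. Both calls were also lost with single libraries left out, as given above.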

How the results depend on the processing

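The difference in the share of gated cells kept its direction under every alternative tried. It was 10.6 percentage points with at least 2 FABP4 UMIs, 13.1 with TPM1 below 5 per 10000, 11.9 after thinning to 2000 UMIs, 1.74 as a share of all cells, and 17.0 to 18.3 with each library left out. Against the other gated cells, 316 genes were called after thinning, 358 by DESeq2, 226 with no block for the ewe and 354 (without LL replicate 1) to 715 with a library left out. Against TPM1-high cells, 660 were called after thinning, 654 with no block for the ewe and 631 (without LL replicate 1) to 1457 with a library left out. Against TPM1-low cells without FABP4, 223 were called with at least 2 FABP4 UMIs, 34 after thinning, 308 with no filter on low counts, 0 with no block for the ewe (479 at an unadjusted p under 0.05 by edgeR) and 58 (without LL replicate 1) to 170 with a library left out, among them 78 without LL replicate 2. TPM1, which the rule uses, reversed there to 0.089 on the log2 scale when its limit was 5 per 10000 (adjusted p = 0.931). For LL against LH in members, 11 genes were called with at least 2 FABP4 UMIs, 7 without doublet calls, 50 after thinning, 1 by DESeq2, 44 with no filter and 0 to 55 with a library left out, among them 7 without LL replicate 2. For the interaction, 4 genes were called with at least 2 FABP4 UMIs, 4 with TPM1 below 5 per 10000, 2 among cells of at least 2000 UMIs, 0 by DESeq2 (112 at an unadjusted p under 0.05) and 1 to 26 with a library left out, 1 of them without LL replicate 1, 3 without LL replicate 2 and 11 without LH replicate 2. Thinning and the higher FABP4 limit left the members of LH replicate 1 with fewer than 10 cells, so these fits held 3 libraries. In LL against LH and in the interaction, a fit of 3 libraries has 1 library in a stage, which is assumed to vary like the pair of the other stage, and its calls rest on that. The causes of the other changes were not tested.

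The labels do not say whether the same replicate number in LH and LL marks anything shared. The deviations of same-numbered members from their stage means had a correlation of -0.069 over 5813 genes. With 2 libraries per stage this value cannot decide the question. With the number as a replicate block, 0 genes were called for LL against LH (222 at an unadjusted p under 0.05 by edgeR). Among the genes followed in the comparison with other gated cells, FABP5, ICAM1, FGF12 and CNN1 kept their call under every alternative run, the one with no block for the ewe included. FABP5 kept it against TPM1-low cells without FABP4 except with no block for the ewe. There ICAM1 (adjusted p = 0.341), GSN (0.165) and CCN2 (0.699) were lost after thinning, where FST and MMP7 were not tested. GSN (0.0575) and CCN2 (0.335) were lost with TPM1 below 5 per 10000, CCN2 also among cells of at least 2000 UMIs (0.075) and without doublet calls (0.248), and GSN (0.0589), CCN2 (0.116) and FST (0.285) by DESeq2. Against the other gated cells, 15 of 35 genes followed missed the threshold after thinning: SRI, DBP, SLC12A2, IDH1, ITM2B, RABAC1, IL18, HACD1, BTG2, SLC25A4, FOS, AVPR1A, PTGS2, ISG15 and SPARC. DESeq2 did not call 17 of 37 there: FCGR3A, DBP, SLC12A2, TIMP1, IDH1, RABAC1, IL18, HACD1, BTG2, FOS, PLAU, NFKBIA, AVPR1A, PTGS2, INHBA, ISG15 and SPARC. With no block for the ewe, 27 of the 37 genes followed missed it, GSN, ACTB and NFKBIA among them. In the comparison with TPM1-high cells, 8 of 44 genes followed lost their call after thinning: IFNAR2, HACD1, BCL2L1, PLIN2, ATP5PO, MYC, ZFP36 and MX1. DESeq2 lost 4 of 46 there: IFNAR2, PYGB, MYC and MX1. MYC was also lost without doublet calls (adjusted p = 0.113). Depth limits the members of LH replicate 1 most, where 1 UMI is worth 24.7 CPM.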
